A study of Mus musculus with 3 samples.

Results

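The 10 genes described here encode the T cell co-receptors and the transcription factors best known for controlling them. They are Cd4, Cd8a and Cd8b1, the Runx genes Runx1, Runx2 and Runx3 with their partner Cbfb, the zinc finger factor genes Gata3 and Patz1, and Myb. They were taken by symbol from 52636 gene identifiers, and all 10 were found and passed the filter on low counts. The libraries were 3 normal thymi of C57BL/6 mice with both Cic alleles floxed (Cic flox/flox) that had received tamoxifen. All 3 share that genotype and treatment. The labels name no Cre driver for them and give no age. The study asked what loss of Cic, the gene of the transcriptional repressor capicua, does to T cell development and leukaemia. Samples without Cic are not analysed here, so no contrast between conditions was made. Replicates 1, 2 and 3 are called thymus 1, 2 and 3.

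Developing T cells pass through a double-positive stage in which they carry CD4 and CD8 together, and then keep CD4 or CD8 alone. CD4 binds MHC class II and CD8 binds MHC class I, and both bring the kinase LCK to the T cell receptor. RUNX proteins bind DNA as dimers with CBFB. In mouse thymocytes they silence Cd4 in cells of the CD8 lineage, GATA3 promotes the CD4 lineage, PATZ1 (also called MAZR) binds the Cd8 locus and helps to repress the CD4-lineage factor gene Zbtb7b, and MYB is needed for survival of double-positive cells.

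Runx genes are transcribed from a distal and a proximal promoter, and counts per gene do not separate them. The windows below, from 250 bases before to 50 bases after an annotated start, are shown because the distal ones share a sequence feature across the family. They come from RefSeq on GRCm38.p6, which had windows for 8 of the 10 genes, 11 in all. Cd4 and Cd8b1 had none. Capitals mark matches on either strand to TGTGGT (the core letters of a RUNX site), its variant TGCGGT, the letters AGATAA for GATA factors, and the letters AACTG for MYB.
Runx1 distal, chr16:92826025-92826324, minus strand: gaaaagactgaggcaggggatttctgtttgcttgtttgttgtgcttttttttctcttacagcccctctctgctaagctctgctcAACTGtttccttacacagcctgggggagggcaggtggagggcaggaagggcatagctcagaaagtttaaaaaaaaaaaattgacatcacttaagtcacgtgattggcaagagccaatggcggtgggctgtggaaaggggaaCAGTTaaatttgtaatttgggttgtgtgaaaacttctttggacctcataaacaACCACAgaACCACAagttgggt
Runx2 distal, chr17:44814578-44814877, minus strand: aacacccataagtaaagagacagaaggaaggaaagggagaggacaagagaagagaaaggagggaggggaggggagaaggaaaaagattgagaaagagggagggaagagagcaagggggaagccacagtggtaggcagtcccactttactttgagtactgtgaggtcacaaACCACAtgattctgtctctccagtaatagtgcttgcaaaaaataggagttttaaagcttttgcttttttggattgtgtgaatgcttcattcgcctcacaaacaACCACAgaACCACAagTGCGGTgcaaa
Runx3 distal, chr4:135120395-135120694, plus strand: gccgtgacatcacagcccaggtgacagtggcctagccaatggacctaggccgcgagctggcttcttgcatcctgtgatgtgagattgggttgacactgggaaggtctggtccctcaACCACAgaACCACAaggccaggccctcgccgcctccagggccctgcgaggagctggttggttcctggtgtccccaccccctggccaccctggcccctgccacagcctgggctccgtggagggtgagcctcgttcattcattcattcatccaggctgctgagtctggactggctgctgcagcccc
Runx1 proximal, chr16:92697280-92697579, minus strand: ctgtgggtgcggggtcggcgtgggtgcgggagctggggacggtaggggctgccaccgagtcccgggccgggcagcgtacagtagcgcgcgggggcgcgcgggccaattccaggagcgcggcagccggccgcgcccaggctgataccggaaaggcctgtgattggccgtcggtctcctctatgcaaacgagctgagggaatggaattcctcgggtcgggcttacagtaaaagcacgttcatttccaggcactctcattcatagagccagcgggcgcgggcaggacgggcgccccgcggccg

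Each of the 3 distal Runx windows holds a pair of RUNX letters on the same strand with 2 bases between them. The pair begins 28 bases after the annotated start in Runx1 and 23 bases after it in Runx2, and at position −134 from it in Runx3. Written with free bases as ACCACANNACCACA and searched on both strands, this pair was found in 7 of 32851 windows of all genes (0.0213%). Beside the 3 Runx windows these were windows of Gm12236, Gm15462, Olfr24 and Gm16225, of which the last lies on the opposite strand over part of the Runx3 window and holds the same bases. The pair was searched for after the single matches had been seen. TGTGGT alone was found in 16.8% of all windows, TGCGGT in 6.45%, AGATAA in 11.2% and AACTG in 44.8%. The proximal windows of Runx1 and Runx3 held 0 matches to any of the 4, and they were rich in CpG, with 35 and 45 CpG against 2 and 8 in the distal windows of the same genes. AGATAA was found in 0 of the 11 windows. The Cd8a window held 2 matches to AACTG and 1 to TGCGGT, the windows of Gata3 and of the upstream start of Patz1 held 1 AACTG each, and those of Cbfb and Myb held none of the letters searched. A match is a description of the letters, and it says nothing on binding in these thymi.

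The libraries held 38265510 to 44932368 reads, of which 25408442 to 30414788 fell on genes in the sense direction, and 3 counts correspond to 0.0986 to 0.118 CPM (counts divided by gene reads in units of 1e6) before scaling. Levels are CPM scaled between libraries by TMM, or CPM per kilobase (kb) of annotated exon where genes are compared with each other. Errors are SDs over the 3 libraries. The labelled tissue was checked against marker genes: the 6 double-positive thymocyte markers summed to 6673 to 7462 CPM, and the 4 thymic epithelial markers to 1089.9 to 1171 CPM. Markers of other cells summed to 218 to 254 CPM for macrophages, 48.8 to 66.0 for B cells, 98.0 to 122 for endothelium and 31.5 to 692 for erythroid cells, the last highest in thymus 1. None of the markers was at 0 in all libraries. The libraries carried a trend with transcript GC content, in that GC content and a gene's log2 deviation had Spearman correlations of −0.157, 0.408 and −0.288 in thymus 1, 2 and 3 (16522 genes). Genes are not independent replicates, so these values carry no p.

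The co-receptor genes were among the most abundant transcripts of the thymus. Cd8a, the chain present in every form of CD8 (chromosome 6, 71373427 to 71379173, plus strand, GRCm38), had 1788, 1865 and 1836 CPM in thymus 1, 2 and 3, a mean of 1829.7 ± 38.6 (SD, n = 3). Cd8b1, the chain that pairs with it on conventional T cells (chromosome 6, 71322788 to 71337494, plus strand), had 1200.3, 1259 and 1235 CPM, a mean of 1231 ± 29.7. Both genes were lowest in thymus 1 and highest in thymus 2, and the ranges of the genes did not overlap. Cd4 (chromosome 6, 124864692 to 124888221, minus strand) had 1085, 1091 and 1002 CPM, a mean of 1059 ± 49.3. Its values were close in thymus 1 and 2 and lower in thymus 3. In CPM the 3 genes lay above 99.9%, 99.8% and 99.7% of the 16548 genes tested, in the order Cd8a, Cd8b1 and Cd4. In bulk tissue, fewer cells of a type and less RNA per cell cannot be told apart.

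Which CD8 chain was higher depended on the scale. In CPM, Cd8a stood 1.49 ± 0.00480 times above Cd8b1. The annotated exons of Cd8a span 3637 bases and those of Cd8b1 1483. Per kb of exon Cd8a was at 503 ± 10.6 and Cd8b1 at 830.4 ± 20.0 CPM per kb, a ratio of Cd8a to Cd8b1 of 0.606 ± 0.00196. With the longest transcript as the length the ratio was 0.704, and with the median transcript length 0.741. Cd8b1 was therefore the higher gene per length under all 3 lengths tried.

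As counted, the share of reads between the CD8 chains was alike in the 3 thymi, and that between Cd4 and Cd8a was not. Of the reads of Cd8a and Cd8b1 together, Cd8b1 took 40.2%, 40.3% and 40.2% in thymus 1, 2 and 3. Exact 95% binomial intervals, which cover counting error only, ran from 39.8% to 40.5%, from 40.0% to 40.6% and from 39.9% to 40.6%, and all 3 overlap. Of the reads of Cd4 and Cd8a together, Cd4 took 37.8%, 36.9% and 35.3%. These intervals were 37.4% to 38.1%, 36.6% to 37.2% and 34.96% to 35.7%, and none of them overlaps another. Per kb of exon the ratio of Cd4 to Cd8a was 0.547, 0.528 and 0.492 in thymus 1, 2 and 3. The summed markers of CD4 and of CD8 single-positive cells were also lowest in thymus 3. The 4 CD4 single-positive markers summed to 318, 352 and 279 CPM and the 4 CD8 single-positive markers to 58.1, 63.2 and 51.6 CPM. Most of the CD4 sum was Cd5, at 185, 198 and 174 CPM in thymus 1, 2 and 3. Ccr7, Zbtb7b and Cd40lg were at 78.6, 42.5 and 9.64 CPM on average. Whether Cd5 and Ccr7 mark CD4 single-positive cells alone was not tested. Among the last, Eomes was highest in thymus 3, at 1.91 CPM against 1.64 and 1.57 in thymus 1 and 2. The transcript GC content was 52.0% for Cd4, 47.2% for Cd8a and 50.8% for Cd8b1. With the GC trend removed Cd4 still had its lowest value in thymus 3, at −0.04 in log2 against 0.04 and 0.00 in thymus 1 and 2. The CD8 chains then differed more from each other, with −0.04, 0.03 and 0.01 for Cd8a and −0.04, 0.00 and 0.03 for Cd8b1, so that Cd8a was highest in thymus 2 and Cd8b1 in thymus 3. The part of these markers in the Cd4 values was not tested.

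**Figure D1:**
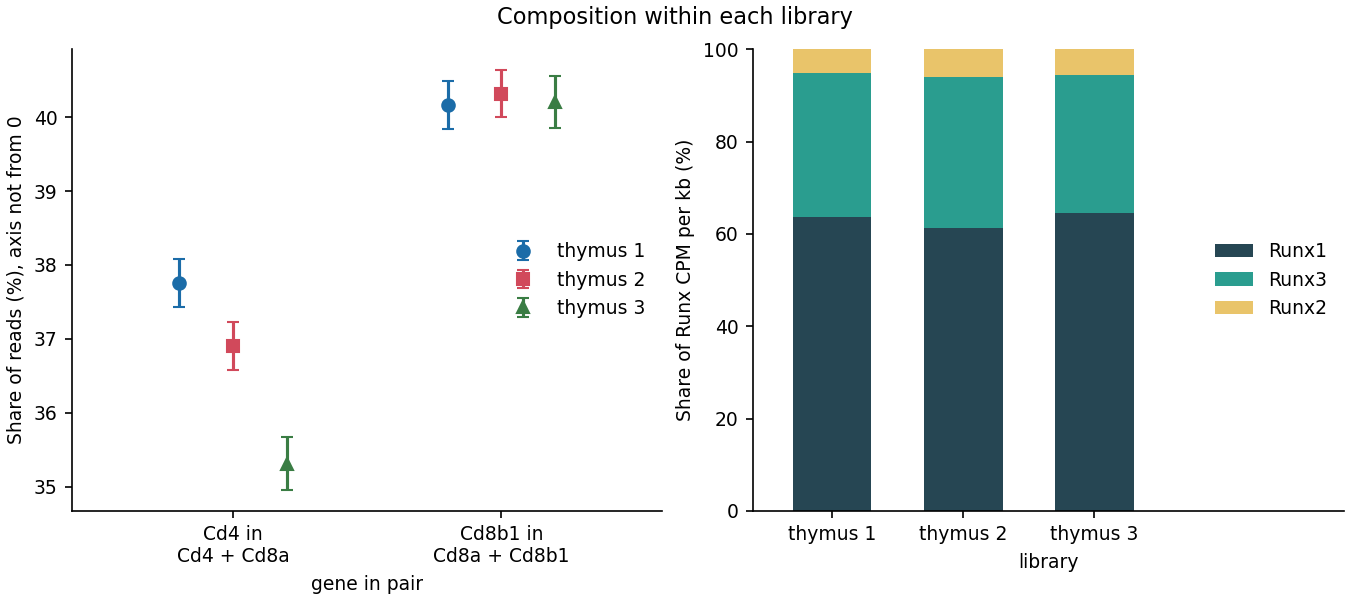
Left, share of reads (%, axis not from 0) taken by Cd4 among Cd4 and Cd8a reads and by Cd8b1 among Cd8a and Cd8b1 reads in each thymus, with exact 95% binomial intervals. The Cd4 shares of 37.8%, 36.9% and 35.3% stand apart from each other, and the Cd8b1 shares lie between 40.2% and 40.3%. Right, share (%) of Runx1, Runx3 and Runx2 in the summed Runx level per kb of exon, with Runx1 above 60% of each bar (61.3% to 64.5%).

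Other cell types of the thymus can carry these co-receptors, since some dendritic cells express Cd8a. The 8 dendritic cell markers summed to 1783, 1503 and 1757 CPM in thymus 1, 2 and 3. Most of that sum was Ccr9, which thymocytes also express, at 1543 ± 155 CPM. The dendritic cell genes Xcr1 and Clec9a stood at 12.6 ± 1.86 and 9.86 ± 1.94 CPM. Both were lowest in thymus 3, as were Batf3, Itgax, Zbtb46 and Siglech of the same list. Ccr9 and Tcf4 were lowest in thymus 2. Tcf4, at 70.6, 68.6 and 71.6 CPM in thymus 1, 2 and 3, was highest in thymus 3. The part of dendritic cells in the Cd8a values was not tested.

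Among the Runx genes, Runx1 gave the most reads and Runx2 the fewest. Runx1, which thymocytes use from their earliest stages (chromosome 16, 92601466 to 92826149, minus strand), had 109, 114 and 102 CPM in thymus 1, 2 and 3, a mean of 108 ± 6.28. Runx3, which establishes the CD8 lineage (chromosome 4, 135120652 to 135177990, plus strand), had 22.3, 25.2 and 19.6 CPM, a mean of 22.4 ± 2.80. Runx2, best known as the master factor of bone formation (chromosome 17, 44495987 to 44814797, minus strand), had 6.44, 8.32 and 6.33 CPM, a mean of 7.03 ± 1.12, from 196, 244 and 156 counts. Thymus 2 was the highest and thymus 3 the lowest for all 3 genes, though Runx2 was nearly level between thymus 1 and 3, and no range of a gene overlapped that of another. Per kb of exon they stood at 9.0 ± 0.522, 4.47 ± 0.559 and 0.796 ± 0.126 CPM per kb for Runx1, Runx3 and Runx2.

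As shares of the summed Runx level per kb, Runx1 made up 63.2 ± 1.67%, Runx3 31.3 ± 1.31% and Runx2 5.56 ± 0.492%. Runx1 was 2.02 ± 0.137 times as high as Runx3 per kb and 11.4 ± 1.23 times as high as Runx2. The Runx genes have 7, 13 and 6 annotated transcripts for Runx1, Runx2 and Runx3. With the median transcript length, which is 2538 bases for Runx1 and 409.5 for Runx3, the ratio of Runx1 to Runx3 turned to 0.785, and with the longest transcript it was 3.23. Runx1 was thus above Runx3 per kb of exon and with the longest transcript, and below it only with the median transcript length. Counts per gene do not show which transcripts were used. Runx2 was the lowest of the 3 under each length. Innate lymphoid and NK cells also express Runx3, and their 5 markers summed to 124, 99.7 and 142 CPM in thymus 1, 2 and 3. Gzma made up most of that sum, at 95.02, 72.5 and 119 CPM, and Klrb1c, Ncr1, Rora and Il1rl1 were each lowest in thymus 3, as Runx3 was. The part of these cells in the Runx3 values was not tested. The bone markers Sp7, Bglap and Ibsp were each below 1 CPM in all libraries, with 0, 3 and 2 counts of Sp7. The other markers of bone and mesenchyme were higher, with Col1a1 at 5.54 ± 0.577 CPM and Dcn at 98.3 ± 16.7 CPM. The part of bone and mesenchymal cells in the Runx2 values was not tested.

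Cbfb, the shared non-DNA-binding subunit (chromosome 8, 105170674 to 105217989, plus strand), had more reads than the 3 Runx genes together. It had 244, 232 and 257 CPM in thymus 1, 2 and 3, a mean of 244 ± 12.4, against a summed Runx level of 138, 148 and 128 CPM. Cbfb was the only one of the 10 genes that was highest in thymus 3 and lowest in thymus 2, the reverse of the Runx genes. With the GC trend removed its log2 deviations were −0.01, 0.00 and 0.01, so that order did not remain, and its transcript has the lowest GC content of the 10 genes at 42.5%. Per kb of exon Cbfb stood at 4.95 ± 0.665 times the Runx sum. This ratio was 3.36 with the longest transcript and 0.975 with the median transcript length, so on the last scale the direction turned.

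Myb, the DNA-binding factor gene first known as an oncogene of acute leukaemia in birds, stood beside the co-receptors in CPM only. It lies on chromosome 10, 21124935 to 21160984, minus strand, and had 1119, 1145 and 1095 CPM in thymus 1, 2 and 3, a mean of 1119.7 ± 25.2. Its values differed by no more than 1.05-fold between thymi, and thymus 2 was highest. Per kb of exon it was at 125 ± 2.83 CPM per kb, above Cbfb and below the co-receptors. Cd4 was at 263, Cd8a at 503 and Cd8b1 at 830 CPM per kb. Gata3 (chromosome 2, 9857078 to 9890034, minus strand) was at 48.9, 53.5 and 51.9 CPM, a mean of 51.4 ± 2.36. Patz1 (chromosome 11, 3288874 to 3309083, plus strand) was at 159, 179 and 177 CPM, a mean of 171 ± 11.1. Both were lowest in thymus 1. Per kb of exon Myb was 9.71 ± 0.432 times as high as Gata3, and Patz1 2.25 ± 0.0557 times. With the longest transcript these ratios were 19.0 and 2.89, and with the median transcript length 4.11 and 1.09.

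**Figure D2:**
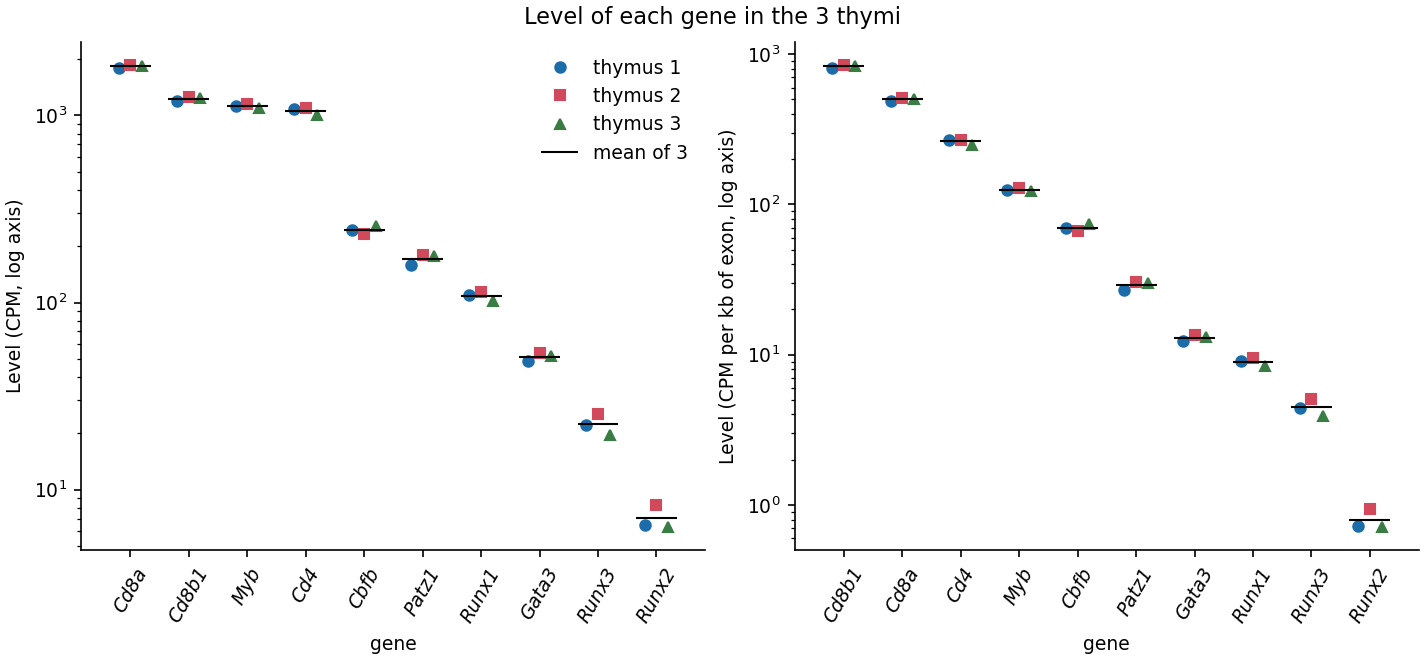
Level of each of the 10 genes in thymus 1, 2 and 3 (points) with the mean of the 3 (line), in CPM on the left and in CPM per kb of exon on the right, both on log axes and ordered from high to low. Cd8a leads in CPM at 1829.7 and Cd8b1 leads per kb at 830.4, while Runx2 is last on both scales.

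Ordered by CPM the genes ran Cd8a, Cd8b1, Myb, Cd4, Cbfb, Patz1, Runx1, Gata3, Runx3 and Runx2, and per kb of exon Cd8b1, Cd8a, Cd4, Myb, Cbfb, Patz1, Gata3, Runx1, Runx3 and Runx2. Between neighbours in either order the ranges over 3 thymi did not overlap, and the higher gene was higher in 3 of 3 libraries for each of the 9 neighbouring pairs. The closest pair in CPM was Myb and Cd4, with a ratio of 1.06 ± 0.0307. The closest pair per kb was Gata3 and Runx1, with 1.44 ± 0.0970. The order per length changed with the length used. With the longest transcript Runx1 stood above Gata3, at 18.47 against 15.998 CPM per kb. With the median transcript length Cd4 led at 1120 CPM per kb, and Cbfb at 98.2 fell below Patz1 at 111 and Gata3 at 101. That length is 946 bases for Cd4 and 509 for Gata3, against 3108 and 3215 for their longest transcripts. These orders are descriptions, because the smallest p of an exact sign-flip test (two-sided) over 3 libraries is 0.25.

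How far the thymi differed from each other in these genes was tested across all genes. Of the 16548 genes tested, 0.0604% varied more than the trend for genes of like abundance (edgeR quasi-likelihood, one-sided, Benjamini-Hochberg threshold 0.05), and 0 of the 10 genes were among them. Their unadjusted p ran from 0.193 for Runx3 to 0.933 for Cd8a in this edgeR fit, so 0 of 10 were under 0.05 where 4.42% of all genes were. Dispersion outliers by DESeq2 held 0 of 10 as well, against 0.489% of all genes, and edgeR's goodness of fit to the negative binomial trend called 0 of 10, against 0.737%. Their median coefficient of variation was 4.87%, against 9.06% over all genes tested. Their median level was also higher, at 208 CPM against 18.8 CPM, and the coefficients were not matched for level. The coefficient ran from 2.11% for Cd8a, 2.25% for Myb and 2.41% for Cd8b1 to 12.5% for Runx3 and 15.9% for Runx2, which have the fewest counts.

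Against read sampling alone the picture was different, since deep counts resolve small differences. Variation beyond counting noise (edgeR goodness of fit at a dispersion of 0, Benjamini-Hochberg threshold 0.05) was found for 9 of the 10 genes, against 43.4% of all genes tested. The exception was Gata3, with an edgeR adjusted p of 0.0815. With library totals in place of TMM there were again 9, but Gata3 was called, with an edgeR adjusted p of 0.0103, and Cbfb was not, with 0.0672. Of genes at 100 CPM or more 80.1% were called, and 7 of the 7 genes here above that level were. The smallest adjusted p of the 10 was that of Cd4, at 1.36e-25 by edgeR, with a range of 1.09-fold between thymi. Leaving out thymus 3 took Cd4 out of the calls, with an edgeR adjusted p of 0.719, so its call rests on that library. Cd8a and Cd8b1 were not called without thymus 1 (edgeR adjusted p of 0.192 and 0.116), nor was Patz1 (0.923). Runx2 was not called without thymus 2 (0.932), Runx1 not without thymus 3 (0.218), and Runx3 was called only without thymus 1 or with all 3.

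**Figure D3:**
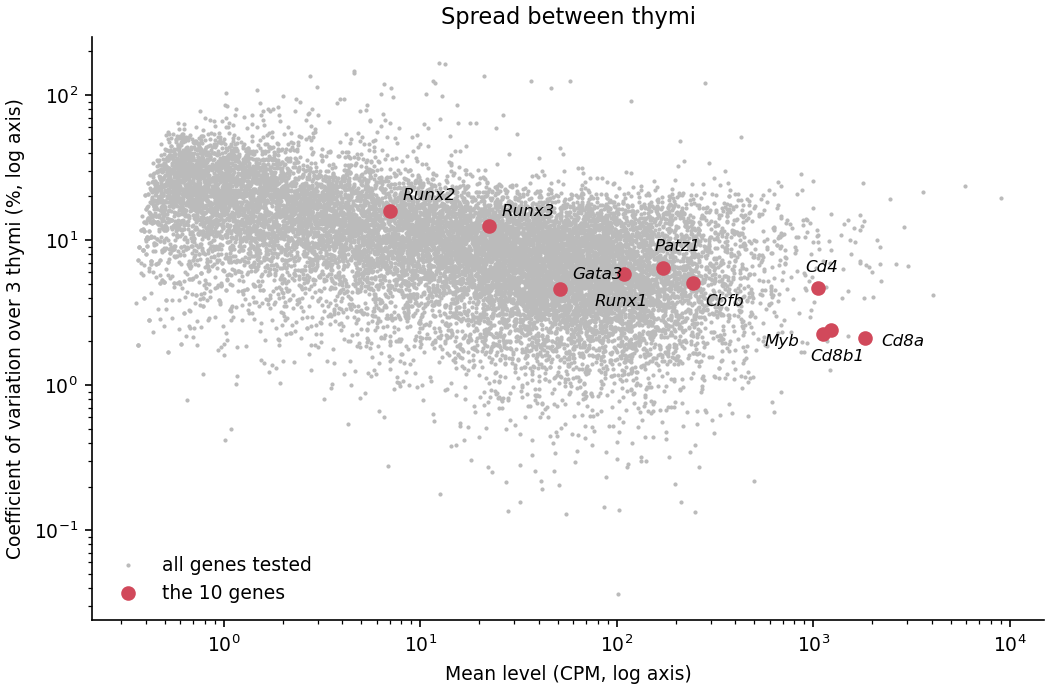
Coefficient of variation over the 3 thymi (%, log axis) against mean level (CPM, log axis) for the 16548 genes tested (grey) and the 10 genes (red). Cd8a, Cd8b1 and Myb lie between 2.11% and 2.41% at more than 1000 CPM, and Runx2 and Runx3 lie highest at 15.9% and 12.5%.

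The direction of the differences was shared by most of the genes. Of the 10 genes 9 were highest in thymus 2, where 38.0% of all genes tested were. Of these 9, Cd4, Myb and the 3 Runx genes were lowest in thymus 3, where 39.7% of all genes were lowest, and Cd8a, Cd8b1, Gata3 and Patz1 in thymus 1. The log2 deviations were largest for Runx2 at 0.25 and Runx3 at 0.18 in thymus 2. For Cd8a, Cd8b1 and Myb they stayed within 0.04 of 0 on either side in every thymus. After removal of the GC trend 6 of the 10 genes were highest in thymus 2. Cd4 was then highest in thymus 1, and Cd8b1, Cbfb and Patz1 in thymus 3. The part of other cell types in these directions was not tested. With library totals in place of TMM, 9 were highest in thymus 2 and 7 lowest in thymus 3, Cd8a and Cd8b1 among them. Library totals leave out the TMM factors of 1.03 in thymus 2 and 0.971 in thymus 3, which shifts every gene alike. The shares over all genes were taken with TMM only. The counts under library totals and after GC removal therefore have no such share to be read against.

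**Figure D4:**
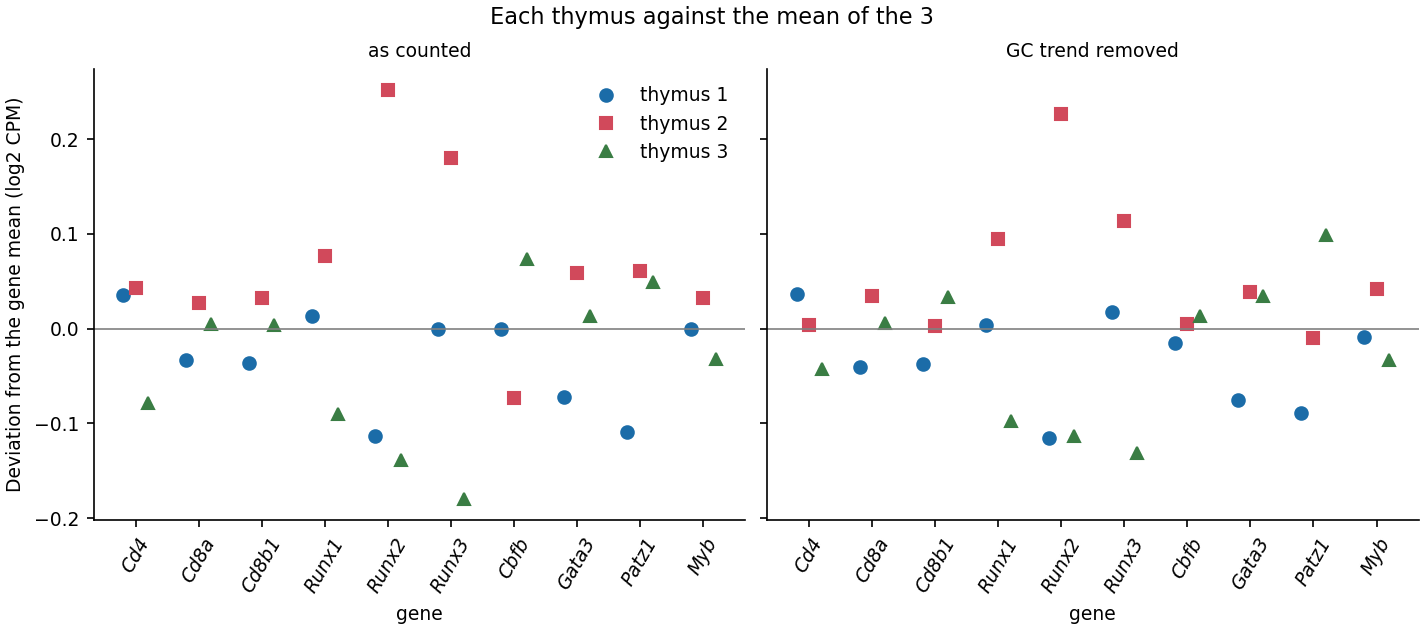
Deviation of each thymus from the mean of the 3 (log2 CPM) for the 10 genes, as counted on the left and after removal of the trend with transcript GC content on the right. Thymus 2 is highest for 9 genes on the left and for 6 on the right, and Runx2 reaches 0.25 and 0.23 there.

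Patz1 and Myb had lower counts when strand was ignored. The library kit keeps strand, and the files also give counts that ignore it, in which a read over exons of overlapping genes is set aside as ambiguous. Without strand, Patz1 lost 17.5%, 16.5% and 17.4% of its reads in thymus 1, 2 and 3 and Myb 14.1 ± 0.668% (SD, n = 3). The losses were alike in all 3 thymi. Gata3 lost 3.38 ± 0.357% and Runx1 3.21 ± 0.169%. The other 6 genes changed by less than 1% on average. Over all genes tested 8.48% lost 10% or more. Each of these 4 genes shares exon bases with an annotated gene on the other strand. Runx2 does so too, with 519 bases shared with Runx2os1, and lost 1.02% and 0.820% in thymus 1 and 2 and gained reads in thymus 3. Myb shares 559 bases with Gm26577, which had 5, 2 and 5 counts on its own strand, and Patz1 605 bases with Gm12592, which had 14, 29 and 33. Gata3 shares 155 bases with Gm13256 (3, 4 and 7 counts) and Runx1 106 with Gm26626 (0 counts in each thymus). The antisense genes thus had few reads of their own, and ignoring strand would raise Gm12592 to 172, 185 and 219 counts.

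**Figure D5:**
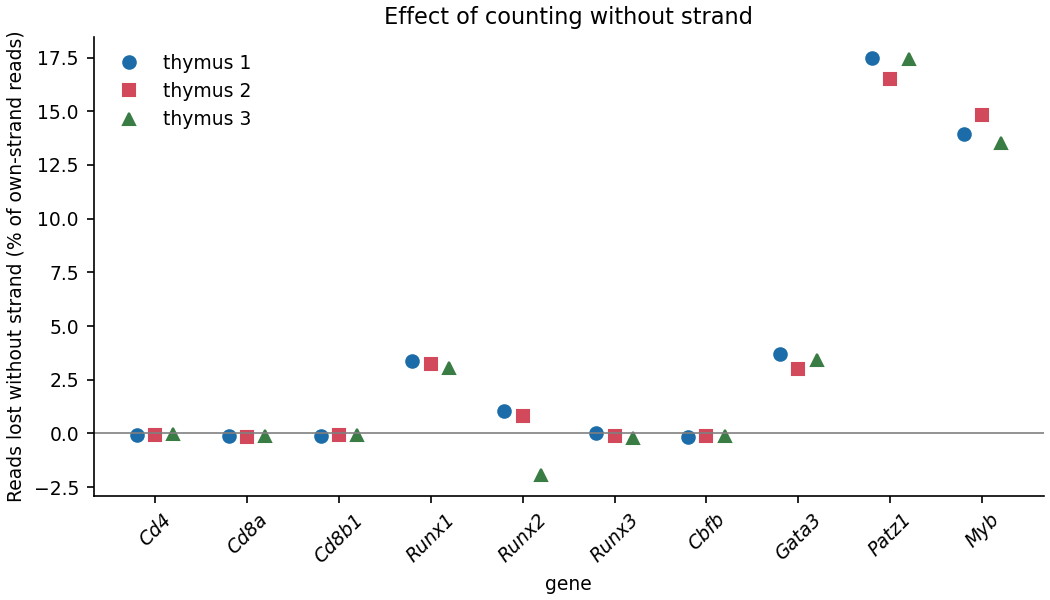
Reads lost by each of the 10 genes when strand is ignored, as % of the reads on the gene's own strand, in thymus 1, 2 and 3. Patz1 and Myb lose 16.5% to 17.5% and 13.5% to 14.8%, Gata3 and Runx1 about 3%, and the other genes lie near 0.

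Reads on the opposite strand were rare. They made up 0.0576% of the stranded reads of Cd4, 0.137% of Cd8a, 0.105% of Cd8b1 and 0.0639% of Myb on average, where the median gene had 0.184%. Runx1, Runx3 and Cbfb also lay below that median, and Gata3 at 0.461% and Patz1 at 0.817% lay above it. Runx2 stood out with 3.83 ± 1.5% (SD, n = 3), from 5, 9 and 9 opposite-strand reads, and exact 95% binomial intervals from 0.813% to 5.71%, 1.64% to 6.65% and 2.52% to 10.1%. The antisense gene Runx2os1 had 5, 11 and 8 counts on its own strand. Little of the 10 genes' sequence occurs in transcripts of other genes. Of all stretches of 50 bases, those also present in another gene's transcripts, on either strand, made up 9.16% for Patz1, 6.28% for Cd8b1 and 5.66% for Runx2, and 4.10% or less for the other 7. These include stretches shared with overlapping antisense genes, such as Gm12592 for Patz1 and Runx2os1 for Runx2. Cd8b1 shared its stretches with genes that do not overlap it, among them Gabpb2, Dnase2a and Pik3c2a.

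The wider pathway was described by 5 lists with 45 distinct genes, chosen with earlier results of these data known, of which 39 passed the filter. Of these 39, 0 varied more than the abundance trend by edgeR's quasi-likelihood test, 0 by DESeq2 and 0 by negative binomial goodness of fit, and 3 had an unadjusted p under 0.05, against 4.42% of all genes tested. Beyond counting noise 30 of 39 were called, against 43.4% of all genes tested and 80.1% of those at 100 CPM or more. The list of other co-receptor and lineage regulators was the most abundant. All 14 exceeded 10 CPM in every library, led by the HMG-box factor gene Tcf7 at 2631 ± 180 CPM, the chromatin organiser gene Satb1 at 1925 ± 126 and Ets1 at 972 ± 78.6. Of the 12 genes of Runx and Cbfb cofactors the deacetylase gene Hdac2 stood at 217 ± 32.9 CPM, the Groucho-type co-repressor gene Tle3 at 200.1 ± 5.95 and the acetyltransferase gene Ep300 at 194 ± 8.40. Runx1t1, the partner of human RUNX1 in a leukaemia fusion, had 4, 2 and 3 counts.

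Gata3 had the highest level per kb of the 6 Gata genes in these thymi, at 12.9 CPM per kb against 0.419 for Gata1, the next. Gata1 had 22, 39 and 25 counts, and Gata2, Gata4, Gata5 and Gata6 were below 1 CPM in every library. Gata5 had the fewest counts, at 3, 2 and 3. The cofactor gene Zfpm1, which encodes FOG1, was at 36.7 ± 7.15 CPM, and its relative Zfpm2 below 1 CPM. Gata3 is also a factor of the parathyroid, and the parathyroid hormone gene Pth had 2295, 933 and 1142 counts in thymus 1, 2 and 3. Gata3 was lowest in thymus 1, where Pth was highest, and of the other parathyroid markers, both below 1 CPM, Gcm2 was highest in thymus 3 and Casr in thymus 2. The part of parathyroid tissue in the Gata3 values was not tested. The Myb relatives Mybl2 and Mybl1 were at 26.2 ± 1.49 and 23.1 ± 5.03 CPM, and per kb Myb stood at 125 CPM per kb against 5.65 for Mybl2 and 4.28 for Mybl1. Of the genes encoding Myb cofactors, Kmt2a led at 611 ± 28.4 CPM, with Ep300 as above and Crebbp at 116 ± 3.42. Of 10 genes reported to be controlled by Runx, Gata3 or Myb in thymocytes, Rag1, a subunit of the V(D)J recombinase, led at 4075 ± 169 CPM, with Ets1, given above, next.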

How the data were processed

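RNA of 3 thymi was made into stranded, polyadenylated-RNA libraries, per the labels' protocols. Each deposited file holds unnormalized counts of reads for every gene, with strand ignored and for either strand. The submitters' processing notes name STAR 2.5.3a, DESeq2 and GRCm38. For the annotation release, the sources used here name none. The reverse-strand counts were used, and 4 summary lines were left out, so genes held 66.4% to 69.1% of reads. Of 52636 identifiers 52489 matched GENCODE M21, from which symbols, coordinates and exon lengths were taken. Counts were analysed in R 4.3.3 with DESeq2 1.42.0, limma 3.58.1 and edgeR 4.0.16, after a filter (minimum count 10, total 15) that left 16548 genes, with TMM factors of 1.00, 1.03 and 0.971. The quasi-likelihood test of spread fitted an intercept only, with 5.24 prior degrees of freedom. It was also run on simulated data in which each gene had the dispersion of the trend. That run does not show how the test performs where genes scatter around the trend. No label ties a library to an animal, so the p-values cover the spread among 3 samples only, and that spread may be technical. Log2 values used a prior count of 2, and GC trends a lowess span of 0.3. The members and lists were chosen with earlier results of these data known. All 10 genes are named, of each list the 3 most abundant, any below 1 CPM in all libraries and any called. A gene that this rule names is not reported here. Mybl1 and Mybl2, marker genes and genes with the paired motif were named after their values were seen. Alternatives covered strand, scaling, filter, prior, test, transcript length, GC content and each thymus left out.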

Additional observations from a re-analysis of the deposited data

How the results depend on the processing

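The count of 0 of 10 genes above the abundance trend was 0 under every alternative run (edgeR quasi-likelihood or its replacement), including each thymus left out. Over all genes that count of 10 moved to 20 with library totals, 285 with no filter, 81 by DESeq2 and 122 by goodness of fit to a negative binomial, and lay between 23 and 137 with 1 thymus left out. Of the 10 genes, 6 to 7 were beyond counting noise with 1 thymus left out and 9 under the other alternatives that gave a value, with Gata3 in place of Cbfb under library totals. Over all genes 3768 to 6579 were, against 7188. Ratios per kb moved with the transcript length. With the longest transcript, Cd8a to Cd8b1 was 0.704, Cd4 to Cd8a 0.583, the Runx1 share 73.0% and Cbfb to the Runx sum 3.36. With the median length they were 0.741, 1.82, 42.1% and 0.975, the lengths alone differing, so Cd4 to Cd8a turned above 1. The median Cd4 transcript has 946 bases, against 3108 for the longest. Without strand Myb was at 979.6 and Patz1 at 145 CPM. Of 500 recomputed values 74 moved, by over 1.5 times for a count or by more than the spread between thymi for a level, ratio or deviation, and 426 did not. No paired analysis was possible because there is 1 group. Runx2, at 156 to 244 counts, is limited most by depth.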

Other observations

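Zbtb7b, the factor gene of the CD4 lineage, and Runx3, that of the CD8 lineage, had the same order of thymi, with thymus 2 highest and thymus 3 lowest. Zbtb7b had 43.1, 48.0 and 36.4 CPM in thymus 1, 2 and 3 and Runx3 22.3, 25.2 and 19.6, and the ratio of Zbtb7b to Runx3 was 1.94, 1.90 and 1.86 in CPM. Itgae, an integrin gene of CD8 cells, had 19.8, 24.3 and 15.8 CPM, in the same order of thymi. Of the other CD8 single-positive markers, Klf2 had that order as well. Nkg7 was highest in thymus 1, with 17.1, 15.0 and 14.8 CPM, and Eomes in thymus 3, with 1.64, 1.57 and 1.91 CPM. Lef1, an HMG-box factor gene, had 192, 217 and 164 CPM. Over all genes tested 38.0% were highest in thymus 2 and 39.7% lowest in thymus 3, and the share with both was not counted. Zbtb7b, Runx3, Itgae and Lef1 were picked after their values were seen. The edgeR quasi-likelihood test called none of them, with edgeR adjusted p of 0.984 for each. Their transcripts have GC contents of 59.9% for Zbtb7b, 55.9% for Runx3, 51.4% for Itgae and 46.1% for Lef1. With the GC trend removed Runx3 kept this order, with log2 deviations of 0.02, 0.11 and −0.13 in thymus 1, 2 and 3. For Zbtb7b, Itgae and Lef1 the part of the libraries' GC trend in this order was not tested.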
